A study of Mus musculus with 2 samples.

Results

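Ligands and receptors of the EGFR family were examined in single cells of mouse ovarian tumors through 9 genes, the ligand genes Areg, Ereg, Hbegf, Tgfa, Btc and Epgn and the receptor genes Egfr, Erbb2 and Erbb3. The genes were taken by symbol from the 32285 genes of the count matrices, and all 9 were found. No measured value was a criterion of the choice, but earlier results of these data were known when it was made. At least 1 transcript of the 9 was counted in 4847 of 6777 filtered cells of the first library and in 3249 of 4041 of the second. The tumors came from KPCA cells, a mouse line labelled as fallopian tube epithelial that models high-grade serous ovarian cancer with mutant Trp53 and with overexpressed Ccne1 and Akt2. KPCA_FSTKO cells lack the follistatin gene Fst. KPCA_FSTKO_hFSTL3 cells were made from them with a plasmid for human FSTL3, a secreted relative of follistatin, and are 1 stable clone picked under geneticin for FSTL3 secretion, so both groups share the Fst knockout, and the transgene and the choice of a clone cannot be told apart. Tumors, omental by the labels, were taken at day 10 post-graft from female C57Bl6J mice aged 12 to 16 weeks, dissociated with collagenase type I and DNase I, pooled by 4 and measured in 1 library per genotype. The human transgene lies outside the mouse reference, and its transcripts were not analysed here.

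EGF-family ligands are made as membrane-anchored precursors that ADAM proteases cut to release the soluble growth factor. Amphiregulin (Areg), TGF-alpha (Tgfa) and epigen (Epgn) bind EGFR, whereas betacellulin (Btc), HB-EGF (Hbegf) and epiregulin (Ereg) bind EGFR and also ERBB4. ERBB2 has no known soluble ligand and acts as the partner of other receptors, and ERBB3 binds neuregulins and has little kinase activity of its own. Active receptors signal through RAS and ERK, and ERK signaling is known to raise the transcription of several of the ligands themselves. In ovarian tumors EGFR-family ligands are known from both the epithelial and the stromal compartment.

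In the mouse genome (GRCm38) 4 of the 6 ligand genes lie in 1 cluster on chromosome 5. Epgn lies at chr5:91027464-91035215, Ereg at chr5:91074622-91093646 and Areg at chr5:91139599-91148432, all on the plus strand, and Btc lies at chr5:91357261-91402994 on the minus strand. The cluster spans 376 kb, with 0 other protein-coding genes between its ends. Promoters are shown for a ligand held mostly by cancer cells (Areg), for the ligand whose level followed it most closely (Btc) and for the neighbour that was close to absent (Epgn). The sequences are from RefSeq (GRCm38.p6), run from 250 bases before to 50 bases after the start on the strand of the gene, and carry in capitals the letters TGACGTCA (the cAMP response element), TATAAA (the TATA box), GGGCGG (bound by SP factors) and TGAGTCA (bound by AP-1) wherever they occur on either strand. The Areg window is chr5:91139349-91139648 on the plus strand, the Btc window chr5:91402945-91403244 on the minus strand and the Epgn window chr5:91027267-91027566 on the plus strand.
Areg: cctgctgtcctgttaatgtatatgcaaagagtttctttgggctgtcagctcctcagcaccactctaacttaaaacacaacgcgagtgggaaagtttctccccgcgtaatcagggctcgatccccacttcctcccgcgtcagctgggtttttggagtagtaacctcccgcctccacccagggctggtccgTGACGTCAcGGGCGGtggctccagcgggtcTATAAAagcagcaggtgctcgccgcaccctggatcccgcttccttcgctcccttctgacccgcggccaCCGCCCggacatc
Btc: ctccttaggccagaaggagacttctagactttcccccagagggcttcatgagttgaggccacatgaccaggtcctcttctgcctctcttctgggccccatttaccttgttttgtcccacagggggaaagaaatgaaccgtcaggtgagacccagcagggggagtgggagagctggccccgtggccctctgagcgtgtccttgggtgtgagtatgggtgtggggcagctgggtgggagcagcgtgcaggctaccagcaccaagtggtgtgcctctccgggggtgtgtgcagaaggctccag
Epgn: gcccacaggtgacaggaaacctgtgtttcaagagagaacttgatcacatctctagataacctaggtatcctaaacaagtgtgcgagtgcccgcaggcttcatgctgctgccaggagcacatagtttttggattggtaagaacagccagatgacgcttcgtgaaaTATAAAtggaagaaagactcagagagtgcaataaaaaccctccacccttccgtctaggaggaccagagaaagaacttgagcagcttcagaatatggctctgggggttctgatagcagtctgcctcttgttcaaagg
The Areg window holds TGACGTCA with its first base 61 bases before the start, GGGCGG with its first base 52 bases before it and TATAAA with its first base 31 bases before it. It also holds CCGCCC, which is GGGCGG read on the other strand, 37 bases after the start. Of these letters the Btc window holds none and the Epgn window holds TATAAA alone, 86 bases before the start used for the window. For Epgn that start lies inside the gene span given above, so the distance would be shorter from the start of that span. It is therefore not set against the distance in Areg, whose 2 starts are the same. Among 32851 promoters of the same length TGACGTCA occurs in 1.79%, TATAAA in 13.6%, GGGCGG in 35.7% and TGAGTCA in 5.20%. Of the other members found in the promoter table, Tgfa holds GGGCGG in both orientations and Egfr holds it in reverse, and Erbb2 holds none of the letters. A match describes the letters of the window and is no evidence of binding, and an absent match says nothing of the factor.

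The KPCA_FSTKO library held 168214773 UMIs (unique molecular identifiers, each standing for a captured transcript) in 7582 barcodes and the KPCA_FSTKO_hFSTL3 library 80391504 in 4244. Filters on mitochondrial share and gene number left 6777 and 4041 cells with medians of 17253 and 15071 UMIs and median mitochondrial shares of 3.54% and 10.7%. The libraries shared 12 barcodes, 10 of them among the kept cells. Cells were clustered without the 9 genes and clusters were named from marker lists, so class names are rebuilt here and may differ from those of the study. Cancer-like cells numbered 3904 and 183, stromal-like cells 440 and 64, and macrophage-like cells 997 and 168. Their median depth was 27277.5 and 47343 UMIs in cancer-like cells, 16376 and 23078 in stromal-like cells and 12502 and 17981 in macrophage-like cells. Clusters with at least 50% of the pancreatic acinar markers raised, or with acinar genes among their leading genes, were kept apart as mixed. These held 43 cells of the KPCA_FSTKO library but 3506 of the 4041 cells of the KPCA_FSTKO_hFSTL3 library. The mixed cells of that library carried the cancer keratin set (Krt7, Krt8, Krt18, Krt19, Msln and Wfdc2) at 81.1% of the level in its cancer-like cells, so its cancer-like values rest on 183 cells and are given below also with the mixed cells counted in. Levels are UMIs of a gene per 1000000 UMIs of the cells summed (CPM). Fst, the gene knocked out in the grafted cells, stood at 5.01 CPM in KPCA_FSTKO cancer-like cells (568 UMIs) and at 124 CPM in stromal-like cells, where it is not deleted. A 3′ tag outside an edited site does not check a knockout. Epcam, an epithelial surface marker, was at 5.12 CPM in KPCA_FSTKO cancer-like cells (581 UMIs) and at 0 UMIs, with an upper limit of 0.422 CPM, in those of the KPCA_FSTKO_hFSTL3 library. Since each genotype is 1 library, no test was made, and the 95% intervals given (exact Poisson for levels, Clopper-Pearson for shares of cells, conditional binomial for ratios) cover counting error alone.

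Cancer-like cells of the KPCA_FSTKO library were the place where most UMIs of all 9 genes lay, but they also held 79.8% of all UMIs of that library, which is the share a gene at an even level would have there. Areg (94.7%), Btc (94.9%), Hbegf (94.2%), Tgfa (90.3%) and Erbb2 (90.1%) stood above that share. Egfr (83.7%) and Ereg (80.3%) were near it, and stromal-like cells, with 5.32% of all UMIs, held 17.1% of Ereg and 10.9% of Egfr. Erbb3 stood at 77.3%, with 15.1% of its 185 UMIs in macrophage-like cells, which held 9.55% of all UMIs. In the KPCA_FSTKO_hFSTL3 library the mixed cells held 78.7% of all UMIs and from 60.6% (Egfr) to 81.6% (Erbb2) of the UMIs of the 8 genes. Cancer-like cells there held 12.5% of all UMIs and 28.2% of Areg, 31.2% of Btc, 29.1% of Hbegf and 27.5% of Egfr, but 6.13% of Ereg, while stromal-like cells, with 2.26% of all UMIs, held 29.8% of Ereg. In a pooled tumor sample, shares of this kind move with the number of cells of each class as well as with the level per cell.

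**Figure D1:**
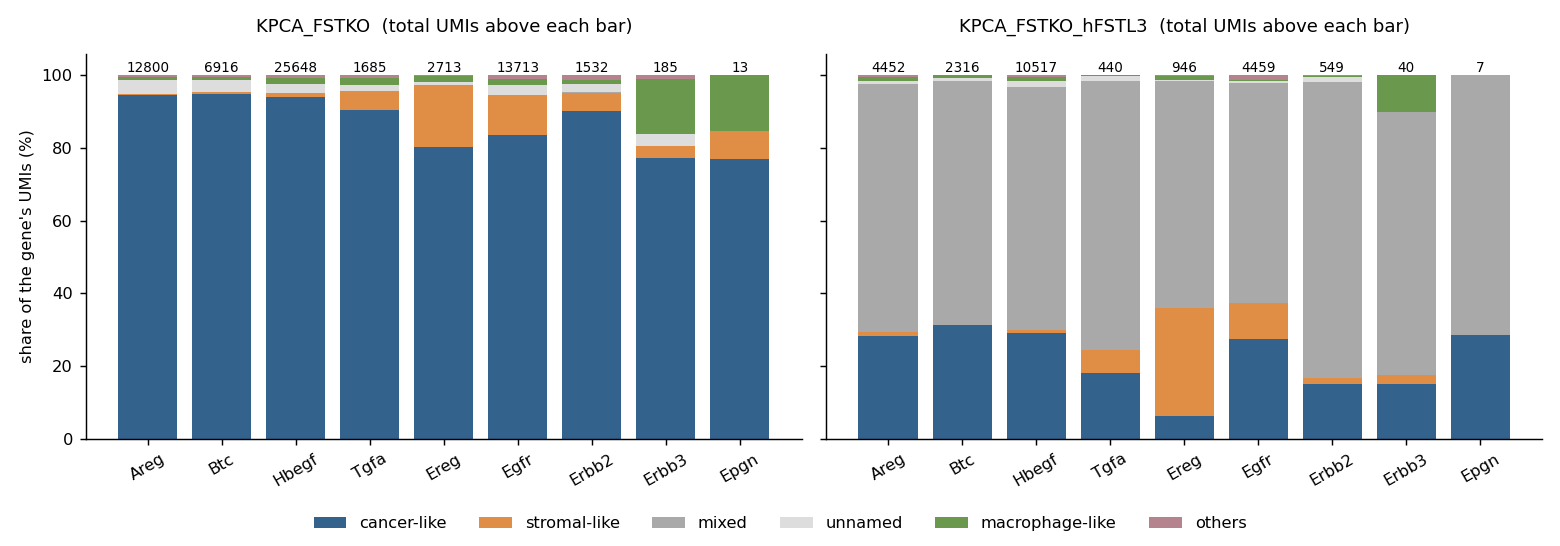
Share of the UMIs of each gene (y axis, percent) that lay in each cell class, for the KPCA_FSTKO library (left) and the KPCA_FSTKO_hFSTL3 library (right), with the total UMIs of the gene above its bar. The bars of the left panel are mostly cancer-like, with a stromal-like share of 17.1% for Ereg, and those of the right panel are mostly mixed cells.

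Amphiregulin and betacellulin transcripts of the KPCA_FSTKO library lay mainly in cancer-like cells. Areg stood at 107 CPM in cancer-like cells (105 to 109, 12117 UMIs), at 8.54 in macrophage-like cells (116 UMIs) and at 3.17 in stromal-like cells (2.03 to 4.72, 24 UMIs). Btc stood at 57.9 CPM in cancer-like cells (56.5 to 59.3, 6565 UMIs), at 4.86 in macrophage-like cells and at 3.31 in stromal-like cells. Transcripts released by broken cells enter all droplets, so levels in other classes were set beside the keratin set, which immune and endothelial cells should lack. Stromal-like cells are no clean yardstick, since the set stood at 1501 CPM in their mesothelial-like subset and 1728 CPM in a cycling subset with cancer markers, both described below, against 116 to 342 CPM in their 4 largest subsets of full depth. Macrophage-like cells held Areg at 7.99% and Btc at 8.39% of the cancer-like level and the keratin set at 11.9% of it. Stromal-like cells held Areg at 2.97%, Btc at 5.71% and the keratin set at 12.4%. In macrophage-like cells both ligands stood no higher than the keratin set, so these levels are not read as expression. The part of free RNA in the stromal-like levels was not tested. In the 133 endothelial-like cells Areg stood at 18.2% and Btc at 20.4% of the cancer-like level, close to the keratin set at 16.8%, and 14 of their 23 Areg UMIs came from 1 cell. The 900 unnamed cells, which carried the keratin set at 66.9% of the cancer-like level, held Areg at 114 CPM and Btc at 53.9 CPM.

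Hbegf, the ligand that also serves as the diphtheria toxin receptor, was spread over more classes. Its level was 213 CPM in KPCA_FSTKO cancer-like cells (210.3 to 216, 24149 UMIs), 80.2 in neutrophil-like cells (55.2 to 113, 33 UMIs) and 76.0 in endothelial-like cells (61.1 to 93.5, 90 UMIs). The intervals of the last 2 classes overlapped. Lower levels were found in pericyte-like cells (48.7 CPM, 34 UMIs), macrophage-like cells (33.7 CPM, 457 UMIs) and stromal-like cells (30.4 CPM, 230 UMIs). Against the cancer-like level this was 35.7% in endothelial-like cells, where the keratin set stood at 16.8%, and 37.7% in neutrophil-like cells, where it stood at 24.0%. In macrophage-like cells it was 15.8% against a keratin set at 11.9%, and in stromal-like cells 14.3% against 12.4%. In the KPCA_FSTKO_hFSTL3 library the 22 endothelial-like cells held Hbegf at 95.7 CPM (24 UMIs), which is 27.3% of the cancer-like level there against a keratin set at 2.28%. Hbegf was therefore above the keratin background in endothelial-like cells of both libraries. After each cell was thinned to 2000 UMIs, Hbegf was found in 25.7% of cancer-like cells (24.3 to 27.1), 13.6% of neutrophil-like cells (7.64 to 21.7), 11.6% of endothelial-like cells (5.72 to 20.4) and 3.83% of macrophage-like cells (2.69 to 5.26).

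Epiregulin had its highest level outside the cancer cells. In the KPCA_FSTKO library Ereg stood at 61.5 CPM in stromal-like cells (56.05 to 67.4, 465 UMIs) against 19.2 in cancer-like cells (18.4 to 20.04, 2179 UMIs) and 3.24 in macrophage-like cells (44 UMIs). The stromal-like level was 3.20 times the cancer-like level (2.89 to 3.54). In the KPCA_FSTKO_hFSTL3 library Ereg stood at 179 CPM in stromal-like cells (159 to 201, 282 UMIs) and at 6.63 in cancer-like cells (5.03 to 8.57, 58 UMIs), a ratio of 27.0 (20.3 to 36.5). A single stromal-like cell of that library held 59 of the 282 UMIs. Thinned to 2000 UMIs, 6.91% of KPCA_FSTKO stromal-like cells (4.64 to 9.84) and 2.51% of cancer-like cells (2.03 to 3.05) held Ereg, so that the order was the same when each cell was counted once.

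TGF-alpha was shared by the epithelial and stromal compartments, and epigen was close to absent. Tgfa stood at 13.4 CPM in KPCA_FSTKO cancer-like cells (12.8 to 14.1, 1522 UMIs) and at 12.04 in stromal-like cells (9.69 to 14.8, 91 UMIs). Their ratio of 0.897 had an interval of 0.718 to 1.11, which includes equal levels. In macrophage-like cells Tgfa stood at 2.36 CPM (32 UMIs), 17.6% of the cancer-like level. Epgn gave 13 UMIs in the whole KPCA_FSTKO library, 10 of them in cancer-like cells (0.0882 CPM), and 7 in the KPCA_FSTKO_hFSTL3 library, too few to compare.

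Among the receptors, Egfr was higher in stromal-like than in cancer-like cells. Stromal-like cells of the KPCA_FSTKO library held Egfr at 198 CPM (188 to 208, 1495 UMIs), cancer-like cells at 101 (99.4 to 103, 11478 UMIs) and pericyte-like cells at 84.4 (64.3 to 109, 59 UMIs). The intervals of cancer-like and pericyte-like cells overlapped. Endothelial-like (27.9 CPM, 33 UMIs), T/NK-like (27.4 CPM, 16 UMIs), neutrophil-like (21.9 CPM, 9 UMIs) and macrophage-like cells (16.6 CPM, 225 UMIs) were lower. In macrophage-like cells this was 16.4% of the cancer-like level, against 11.9% for the keratin set. Egfr spans 166 kb, and genes over 100 kb held 12.4% of UMIs in KPCA_FSTKO stromal-like cells and 9.47% in cancer-like cells. They held 18.6% in endothelial-like, 13.4% in pericyte-like, 13.4% in T/NK-like, 12.9% in neutrophil-like and 10.5% in macrophage-like cells. The part of this share in the Egfr levels was not tested. Thinned to 2000 UMIs, Egfr was found in 29.9% of stromal-like cells (25.5 to 34.6), 18.3% of cancer-like cells (17.1 to 19.6) and 2.87% of macrophage-like cells. The order of stromal-like over cancer-like cells held in the KPCA_FSTKO_hFSTL3 library, at 279 CPM (253 to 306, 439 UMIs) against 140.0 CPM (132 to 148, 1225 UMIs), and its 11 pericyte-like cells held 192 CPM (51 UMIs).

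Erbb2, the co-receptor, stood at 12.2 CPM in KPCA_FSTKO cancer-like cells (11.5 to 12.8, 1381 UMIs), 10.2 in stromal-like cells (8.04 to 12.7, 77 UMIs) and 1.40 in macrophage-like cells (19 UMIs). The cancer-like and stromal-like intervals overlapped, with a ratio of 0.836 (0.656 to 1.05). Erbb3, the neuregulin receptor, was sparse, at 1.26 CPM in cancer-like cells (1.06 to 1.49, 143 UMIs) and 2.06 in macrophage-like cells (1.37 to 2.98, 28 UMIs), and was the only member with over 100 UMIs whose macrophage-like level lay above the cancer-like one, at 1.64 times (1.05 to 2.46). In KPCA_FSTKO_hFSTL3 macrophage-like cells it gave 4 UMIs, too few to repeat the comparison.

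**Figure D2:**
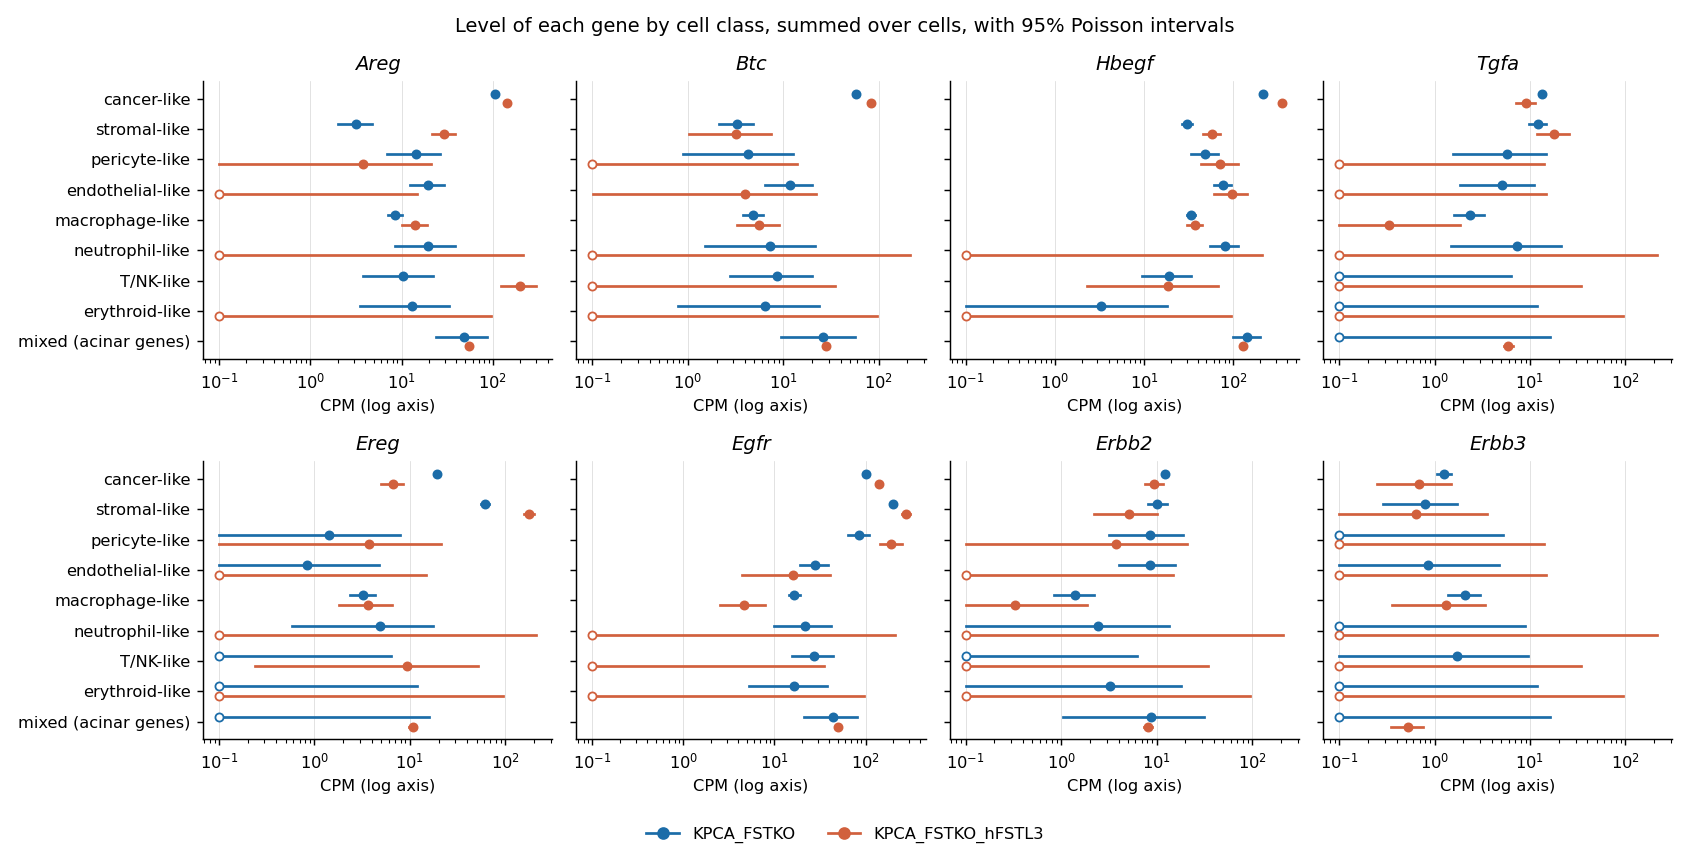
Level of each gene (x axis, CPM on a log scale) in each cell class (y axis) of the KPCA_FSTKO (blue) and KPCA_FSTKO_hFSTL3 (orange) libraries, as UMIs summed over cells with 95% Poisson intervals, where an open circle at the left edge stands for 0 UMIs. Among the classes drawn, Areg, Btc and Hbegf are highest in cancer-like cells (107, 57.9 and 213 CPM in KPCA_FSTKO, apart from the 15 T/NK-like cells of KPCA_FSTKO_hFSTL3 for Areg), and Ereg and Egfr in stromal-like cells (61.5 and 198 CPM).

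Between stromal-like and cancer-like cells of the KPCA_FSTKO library, 13414 genes had at least 100 UMIs over both classes, and a gene was counted as past the size rule when its CPM ratio was also at least 2 in either direction. Of the 8 members with enough UMIs, 1 was higher in stromal-like cells (Ereg, log2 ratio 1.68), against 15% of all genes, and 3 were lower, against 18.1% of all genes. The 3 lower members were all ligands, Areg (-5.07), Btc (-4.13) and Hbegf (-2.81). At a clustering resolution of 1.2, which drew the stromal-like class differently, these were -1.52, -1.89 and -1.55. Egfr, with a log2 ratio of 0.97, stopped just short of the rule. It passed the rule at a clustering resolution of 0.4 (1.09) and when cells were gated on marker UMIs (1.29). It also passed when 2 cancer-like clusters that stood apart in depth or ribosomal content were left out (1.08), an alternative chosen after seeing the data. Other alternatives left it below the rule, and over 10 of them it ran from 0.86 to 1.29. Between macrophage-like and cancer-like cells, 7 of the 8 members were lower (from -3.65 for Areg to -2.51 for Tgfa), against 29.5% of 13587 genes, and 0 were higher, against 15.7%. Erbb3 was the member that was not lower.

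Within the cancer-like cells the ligand transcripts were unevenly held. In the KPCA_FSTKO library the 196 cells with the most UMIs of a gene, 5% of the class, held 74.0% of the Ereg UMIs, 53.7% of Areg, 41.3% of Btc, 33.0% of Hbegf and 29.6% of Egfr. A single cell held up to 125 UMIs of Areg, 128 of Hbegf and 67 of Ereg. Areg was seen in 38.4% of these cells, Btc in 42.3%, Hbegf in 73.6%, Ereg in 16.5% and Egfr in 67.8%. Thinned to 2000 UMIs, which 3831 cells reached, the shares were 11.4% for Areg (10.4 to 12.5), 8.67% for Btc, 2.51% for Ereg and 18.3% for Egfr (17.1 to 19.6). In the 183 cancer-like cells of the KPCA_FSTKO_hFSTL3 library the top 5% of cells held 39.2% of Areg and 22.5% of Hbegf, with at most 75 and 83 UMIs in a cell.

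To see which cancer cells held them, the cancer-like cells of both libraries were clustered again, without the 9 genes, into 10 subsets, numbered 0 to 9. In KPCA_FSTKO, Areg and Btc were highest in subset 2, and the Hbegf intervals of subsets 2 (268 to 284) and 5 (266 to 283) overlapped. Subset 2 (419 KPCA_FSTKO cells), led by Cth, Plet1 and Csn3, held Areg at 209 CPM, Btc at 109 and Hbegf at 276. Subset 5 (372 cells), led by the replication genes Hist1h1b and Mcm10, held Areg at 184 CPM, Btc at 65.2 and Hbegf at 275. Subset 1 (555 cells), led by the epithelial genes Elf3 and Cldn3 together with Plac8, held Areg at 111 CPM and Hbegf at 252, and it also held 66 of the Erbb3 UMIs (3.52 CPM) and, over its cells of both libraries, Epcam at 25.7 CPM. The mitotic subset 4 (377 cells), with Cenpf in the lead, held Areg at 124 CPM and Btc at 78.6.

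Egfr took a different order. Its level was 168 CPM in subset 0 (738 cells, with Pdgfrb, Trf and Lbp among its leading genes), where Areg was 23.6 CPM, and 226 in subset 8 (219 cells, led by Postn, Arhgap24 and Col1a2), where Areg was 40.3 CPM. In subset 2, the highest for Areg, Egfr was 46.2 CPM, and in subset 1 it was 51.2. Subset 8 had 7 of 12 fibroblast markers raised, and no doublet caller was run, so doublets of cancer and stromal cells in it were not tested. The highest Egfr (349 CPM), Ereg (55.9 CPM) and Erbb2 (19.97 CPM) levels fell in subset 6 (381 cells, led by Gm26917 and Taco1), which also stood apart in depth (median 6606 UMIs), in mitochondrial share (11.3%) and in UMIs from genes over 100 kb (29.5%, against 1.0% to 14.9% in the others). Egfr is itself such a gene, at 166 kb, and the only member over 100 kb. In KPCA_FSTKO, genes over 100 kb held 13.2% of UMIs in subset 8 and 10.7% in subset 0. They held 7.88% in subset 2 and 8.73% in subset 1. Over the subsets the order of Egfr was close to the order of this share. Both were lowest in subset 9, then in subset 7 (3.65%, Egfr at 28.1 CPM) and subset 2. Both rose from subset 3 (8.99%, 113 CPM) through subsets 0 and 8 to subset 6. Subset 1 broke this order, with Egfr below that of subset 5 (8.60%, 77.0 CPM) and subset 4 (8.12%, 64.5 CPM) but a higher share. The part of these 3 measures in the Egfr levels of the subsets and in the Ereg level of subset 6 was not tested. The lowest levels of all fell in subset 9 (104 cells), led by ribosomal genes, with Areg at 7.68 CPM, Hbegf at 4.61 and Egfr at 5.38.

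**Figure D3:**
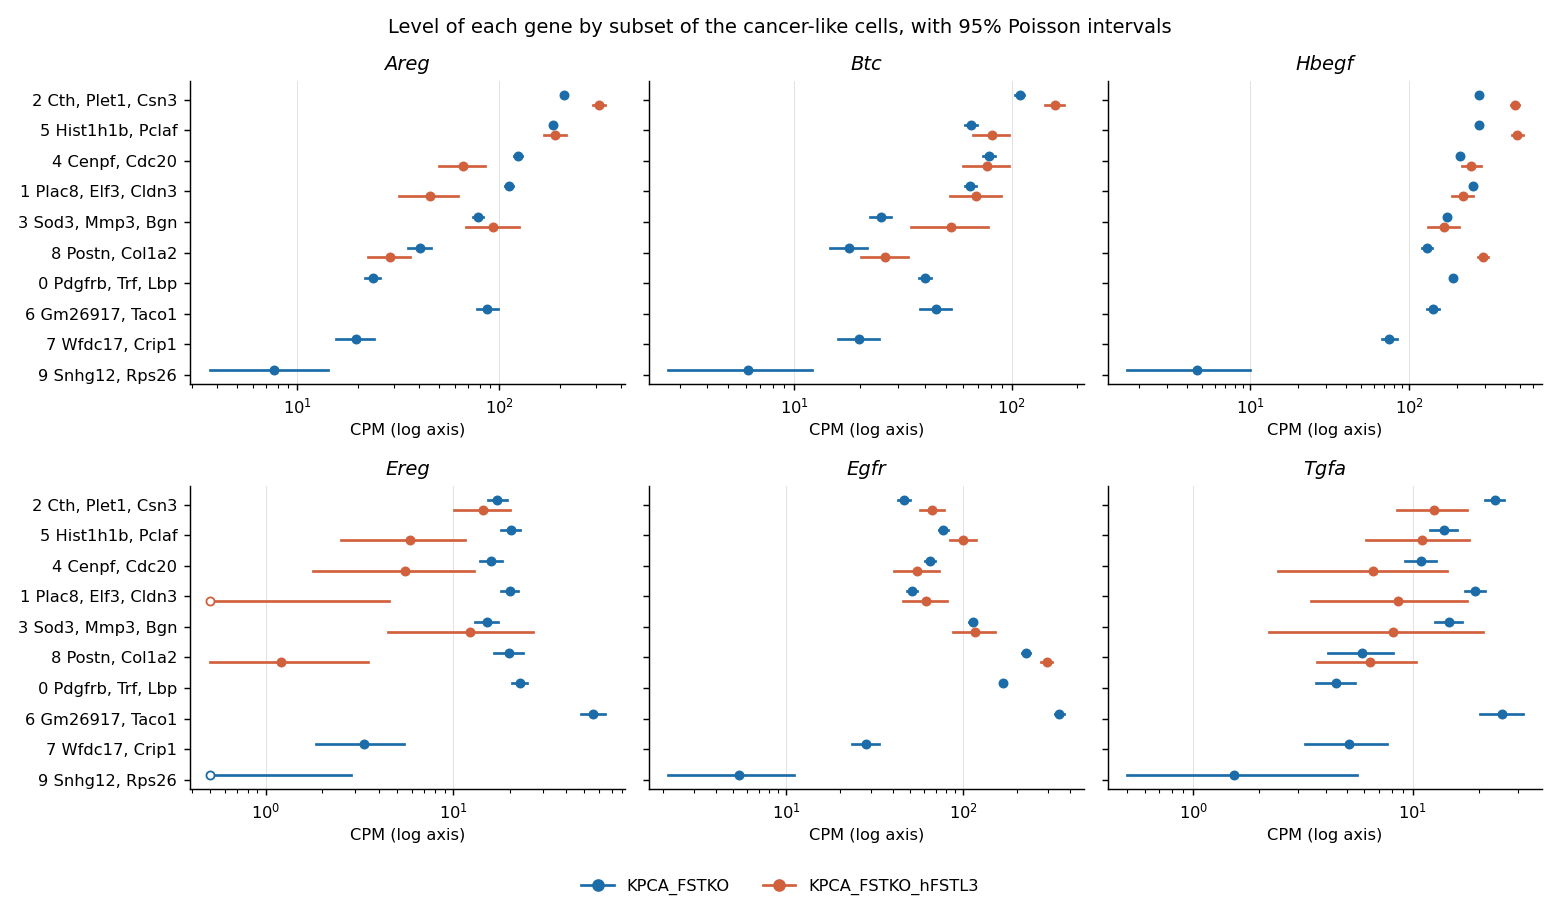
Level of 6 genes (x axis, CPM on a log scale) in 10 subsets of the cancer-like cells (y axis, by leading genes) of the KPCA_FSTKO (blue) and KPCA_FSTKO_hFSTL3 (orange) libraries, with 95% Poisson intervals, where an open circle stands for 0 UMIs and groups under 10 cells are left out. Areg and Btc are highest in subset 2 (209 and 109 CPM in KPCA_FSTKO), where Egfr is at 46.2 CPM, and Egfr reaches 349 CPM in subset 6.

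Over the 10 KPCA_FSTKO subsets the rank order of Areg resembled that of Btc (Spearman's rho 0.93) and Hbegf (0.90), and was unlike that of Egfr (0.12), while Egfr ran with Erbb2 (0.78) and Ereg (0.73). These values describe 10 subsets of 1 library that share its depth and free RNA. The part of the share of UMIs from long genes in the Egfr order was not tested. The same pairs were counted cell by cell after thinning to 5000 UMIs, which 3643 KPCA_FSTKO cancer-like cells reached. Areg was found in 740 of them and Btc in 619, and 227 held both, against 126 for the product of the shares. Btc was found in 30.7% of cells with Areg and in 13.5% of those without it. Hbegf was found in 60.7% of cells with Areg and in 40.6% of those without. Egfr ran the other way, in 26.4% of cells with Areg and 33.9% of those without, and in 25.5% of cells with Btc against 33.8%. Cells with Ereg held Egfr in 38.1%, against 32.1% of those without. In the 178 KPCA_FSTKO_hFSTL3 cancer-like cells of that depth the shares for Areg ran the same ways, with Btc in 38.9% against 25% and Egfr in 37.0% against 50%, while for Btc the share with Egfr was 46.2% against 46.03%. These shares are counts over cells of 1 library each and were not tested.

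The genes with the most similar pattern to each member were sought over 16 clusters of at least 50 KPCA_FSTKO cells by Pearson's r of log2(CPM + 1), among 14329 genes. The clusters share 1 library, and no p is given. Areg and Btc were each other's nearest gene (r 0.97). Areg was next followed by Ankrd1 (0.95) and Klra4 (0.94), and Btc by Klra4 (0.96) and Acp6 (0.96). Hbegf was nearest to Tubb3 (0.96), Kctd5 (0.95) and Nr2f1 (0.95), and Tgfa to Atxn7l2 (0.94), Cldn12 (0.94) and Lurap1 (0.93). Ereg lay nearest to Kcnd1 (0.92), Smo (0.92) and Ugdh (0.91). Egfr lay nearest to Sema3a, Ccbe1 and Slit2 (0.98 each), secreted guidance and matrix factors. Since Egfr spans 166 kb, the share of UMIs from long genes may enter these values, and its part was not tested. Erbb2 lay nearest to Zfp334 (0.97), Hoxaas3 (0.93) and 2900089D17Rik (0.93), and Erbb3 to Gm20712 (0.91), Amy1 (0.88) and Carf (0.88). Between members, Ereg resembled Tgfa (0.88) and Egfr (0.82) more than its chromosomal neighbour Areg (0.47).

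The stromal-like cells were clustered again into 8 subsets, among which the levels of epiregulin, TGF-alpha, HB-EGF and EGFR varied. In the KPCA_FSTKO library Ereg was 122 CPM (41 UMIs) in subset 2 (75 cells, shallow at a median of 2622 UMIs), 107 CPM (154 UMIs) in subset 3 (66 cells, led by Gipr and Calb2) and 74.7 CPM (127 UMIs) in subset 0 (97 cells, led by Cxcl13 and Calca). The intervals of subsets 2 (87.5 to 165) and 3 (91.1 to 126) overlapped. It was 44.2 CPM (76 UMIs) in the myofibroblast-like subset 1 (82 cells, 6 of 10 markers raised, led by the contractile genes Myh11, Tagln and Acta2) and 37.0 CPM (34 UMIs) in subset 4 (54 cells, led by Sparcl1 and Postn, 7 of 12 fibroblast markers raised). Tgfa was highest in the mesothelial-like subset 5 (30 cells, 8 of 11 markers raised), at 49.0 CPM (28 UMIs), where Ereg was 22.8 CPM. Hbegf was 60.0 CPM (86 UMIs) in subset 3 and 52.6 (30 UMIs) in subset 5. It was 54.5 CPM in the cycling subset 6 (24 cells), which had 11 of 14 cancer markers raised. Egfr was found in every subset, at 426 CPM (38 UMIs) in subset 7 (12 cells, led by Clec3b and Gdf10, 8 of 12 fibroblast markers raised), 389 CPM (131 UMIs) in subset 2, 275 CPM (253 UMIs) in subset 4 and 163 CPM in subset 3. The intervals of subsets 7 (301 to 585) and 2 (326 to 462) overlapped. Both were shallower than the others, with 22.5% of UMIs from genes over 100 kb in subset 2 and 15.1% in subset 7, and the part of these measures in their Egfr levels was not tested. Subset 7 gave 0 UMIs of Ereg, Tgfa, Hbegf and Areg, but with 89205 UMIs in all the upper limit was 41.4 CPM for each, above the level of the whole class for Tgfa, Hbegf and Areg. In the KPCA_FSTKO_hFSTL3 library the 6 cells of subset 7 held Egfr at 584 CPM (352 to 912, 19 UMIs), which overlapped subset 3 at 509 CPM (388 to 657, 59 UMIs in 3 cells).

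**Figure D4:**
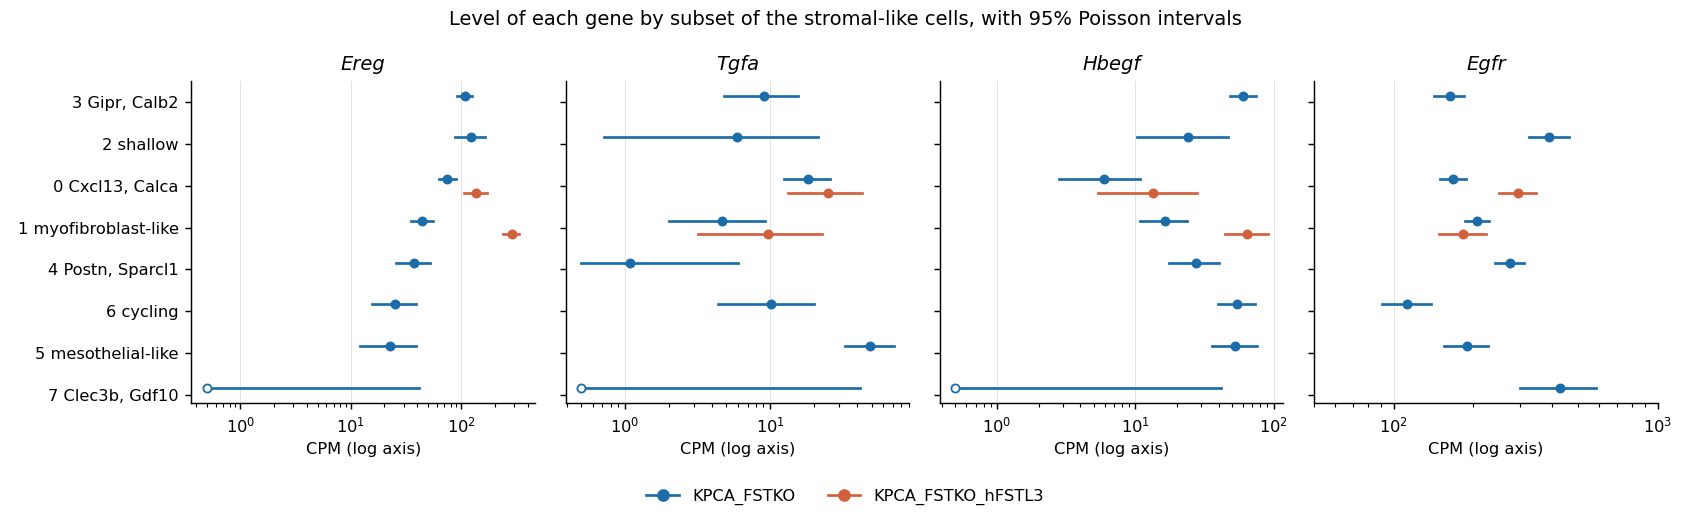
Level of 4 genes (x axis, CPM on a log scale) in 8 subsets of the stromal-like cells (y axis) of the KPCA_FSTKO (blue) and KPCA_FSTKO_hFSTL3 (orange) libraries, with 95% Poisson intervals, where an open circle stands for 0 UMIs and groups under 10 cells are left out. Ereg is at 107 CPM in subset 3 and 22.8 in the mesothelial-like subset 5 of KPCA_FSTKO, whereas Tgfa is highest in subset 5 (49.0 CPM) and Egfr stands at 426 CPM in subset 7.

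Next, the libraries were compared, which sets tumors of the FSTL3-secreting clone beside those of its parent line. In cancer-like cells Areg, Btc, Hbegf and Egfr were moderately higher in the KPCA_FSTKO_hFSTL3 library, and Ereg was lower. Hbegf stood at 350.0 CPM (338 to 363, 3063 UMIs) against 213, a ratio of 1.64 (1.58 to 1.71). Areg stood at 144 CPM (136 to 152, 1256 UMIs) against 107, a ratio of 1.34 (1.27 to 1.42), Btc at 82.5 CPM (722 UMIs) against 57.9, a ratio of 1.43 (1.32 to 1.54), and Egfr at 140.0 against 101, a ratio of 1.38 (1.30 to 1.47). None of these reached the ratio of 2. Ereg stood at 6.63 CPM against 19.2, a ratio of 0.345 (0.261 to 0.448). Tgfa (0.673, 0.530 to 0.844) and Erbb2 (0.779, 0.616 to 0.972) were lower by less than the rule asks. By the size rule 1 of 8 members was lower, Ereg, against 7.1% of 13053 genes, and 0 were higher, against 3.4%, with a median log2 ratio of all genes of 0.02.

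These ratios turned with the cells that were counted. With the mixed cells of the KPCA_FSTKO_hFSTL3 library counted as cancer-like, the log2 ratios of Areg (-0.66), Btc (-0.70), Hbegf (-0.42) and Egfr (-0.71) changed sign, and that of Ereg moved from -1.54 to -0.91. In the mixed cells themselves Areg stood at 55.6 CPM (3049 UMIs), Btc at 28.2, Hbegf at 128 and Egfr at 49.2, which is 0.387, 0.342, 0.366 and 0.351 times their level in the cancer-like cells of that library. Ereg stood at 10.8 CPM (591 UMIs) there, 1.62 times that level (1.24 to 2.17). The mixed cells were also even in their content, with the top 5% of cells holding 24.6% of Areg and no cell above 15 UMIs. Over all filtered cells, which need no class names, the ratio was below 1 for each of the 8 members, from 0.441 for Erbb3 to 0.836 for Hbegf, with 0 past the size rule upward, against 3.87% of 15205 genes, and 1 downward (Erbb3), against 7.93%. The median log2 ratio of all genes there was -0.21.

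The libraries also drew their cancer-like cells from different subsets. Of the 183 KPCA_FSTKO_hFSTL3 cells, 60 lay in subset 8, 45 in subset 2, 26 in subset 5, 23 in subset 4 and 0 in subset 0, which was the largest in KPCA_FSTKO. Within subset 2 Ereg was 14.4 CPM against 17.2 (log2 ratio -0.25), and the lower Ereg level was found in subset 8, at 1.19 CPM (3 UMIs) against 19.8 (122 UMIs), a ratio of 0.0602 (0.0122 to 0.180), and in subsets 5 (-1.79, 8 UMIs) and 4 (-1.53, 5 UMIs). Hbegf had log2 ratios of 0.76 in subset 2, 0.81 in subset 5, 0.23 in subset 4 and 1.17 in subset 8. In 2 smaller groups of KPCA_FSTKO_hFSTL3 cells it was not higher, at 218 CPM (13 cells, 178 UMIs) against 252 in subset 1 and at 167 CPM (11 cells, 82 UMIs) against 173 in subset 3. Areg had log2 ratios of 0.57 in subset 2, 0.04 in subset 5, -0.91 in subset 4 and -0.49 in subset 8. Thinned to 2000 UMIs, Areg was found in 14.2% of KPCA_FSTKO_hFSTL3 cancer-like cells against 11.4%, Hbegf in 39.3% against 25.7%, and Ereg in 0.546% against 2.51%. The Ereg share of the KPCA_FSTKO_hFSTL3 library rests on a single cell of the 183.

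In stromal-like cells epiregulin ran the other way. Ereg stood at 179 CPM in the KPCA_FSTKO_hFSTL3 library against 61.5, a ratio of 2.91 (2.50 to 3.38), and it was the 1 member past the size rule upward of the 4 with enough UMIs, against 1.47% of 8451 genes. Hbegf (1.88, 1.46 to 2.41), Egfr (1.41, 1.26 to 1.57) and Tgfa (1.48, 0.931 to 2.28) stayed below the rule, and 0 members were lower, against 2.47%. The Ereg level was 285 CPM (146 UMIs) against 44.2 in the myofibroblast-like subset 1 (16 and 82 cells) and 136 CPM (71 UMIs) against 74.7 in subset 0 (21 and 97 cells). In subset 3, 3 cells of the KPCA_FSTKO_hFSTL3 library held 62 Ereg UMIs. Other subsets ran the other way on few UMIs, with 12.7 CPM (2 UMIs) against 37.0 in subset 4, 6.09 (1 UMI) against 25.4 in subset 6 and 0 UMIs against 22.8 CPM in subset 5. Taking the mean over cells, which weights each cell alike, left a log2 ratio of 0.84, below the rule. Without thinning, Ereg was seen in 21.9% of KPCA_FSTKO_hFSTL3 stromal-like cells (14 of 64) and 21.4% of those of KPCA_FSTKO (94 of 440). The 4 KPCA_FSTKO_hFSTL3 cells with most Ereg held 75.9% of its 282 UMIs, and the top 22 KPCA_FSTKO cells held 72.3% of 465. The 46 Areg UMIs of KPCA_FSTKO_hFSTL3 stromal-like cells included 44 from 1 cell and are not read as a stromal level. In macrophage-like cells Areg was 13.9 CPM (42 UMIs) against 8.54, a ratio of 1.63 (1.12 to 2.34), Hbegf 37.2 (112 UMIs) against 33.7, and Egfr 4.65 (14 UMIs) against 16.6, a ratio of 0.280 (0.151 to 0.481). The keratin set in macrophage-like cells moved as well, from 11.9% to 7.23% of the cancer-like level, and its part in the Egfr ratio was not tested.

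**Figure D5:**
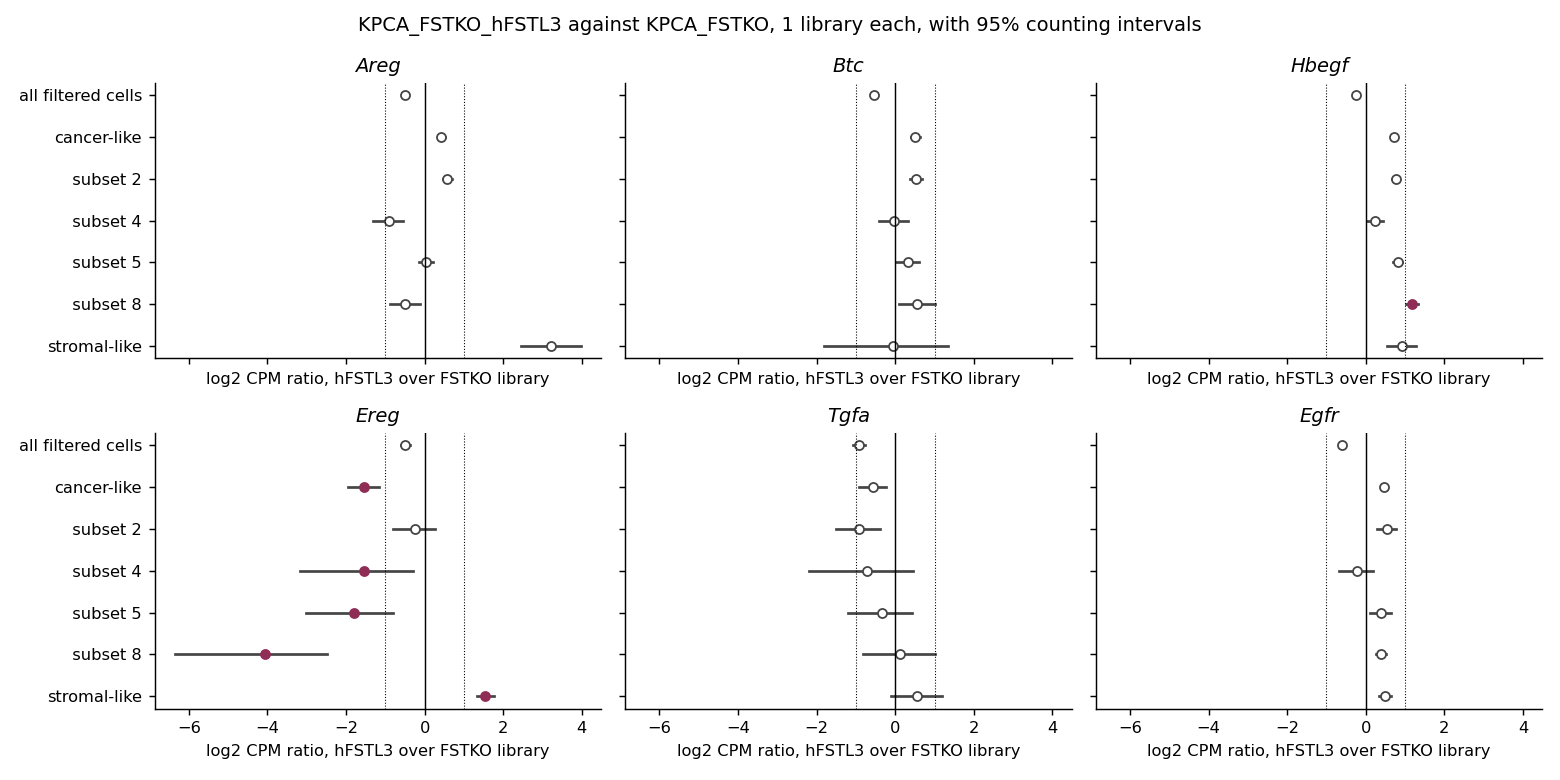
Log2 ratio of the CPM of 6 genes (x axis, KPCA_FSTKO_hFSTL3 over KPCA_FSTKO) in all filtered cells, cancer-like cells, their 4 subsets with most KPCA_FSTKO_hFSTL3 cells and stromal-like cells (y axis), with 95% counting intervals, dotted lines at a ratio of 2 either way and filled points past the size rule. Ereg lies at -1.54 in the cancer-like class and at 1.54 in the stromal-like class, and Areg, Btc and Hbegf lie within the dotted lines in all filtered and in cancer-like cells.

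The other genes of the pathway were followed in 6 lists with 51 genes. Between the libraries in cancer-like cells, 49 had enough UMIs, 0 were higher and 5 were lower, beside 3.4% and 7.1% of all genes, with a median log2 ratio of 0.10 against 0.02 for all genes. The 5 were the neuregulin gene Nrg2 (-2.67, 2 UMIs against 165), the receptor ubiquitin ligase Cblb (-1.09, 27.7 CPM against 59.0), the EGFR inhibitor Errfi1 (-1.07, 227 CPM against 478), the RAS-ERK inhibitor Spry1 (-1.39, 9.14 CPM against 23.9) and Ier3 (-1.17, 354 CPM against 797), an early gene of ERK signaling. Errfi1 and Spry1 were 2 of the 10 inhibitors with enough UMIs, Cblb was 1 of 8 adaptors and ubiquitin ligases, and Ier3 was 1 of 13 ERK-induced genes. None of the 10 genes of the RAS to ERK chain and none of the 4 shedding genes passed the rule. The sheddases Adam10 (146 CPM against 145) and Adam17 (43.1 against 42.1), which cut the ligand precursors, were at near equal levels in the cancer-like cells of both libraries. In stromal-like cells 1 of 45 genes with enough UMIs passed the rule, Errfi1 (-1.03, 389 CPM against 794), beside 2.47% of all genes that were lower.

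Between classes of the KPCA_FSTKO library the lists moved further. In stromal-like over cancer-like cells 6 of 48 genes were higher and 8 lower, beside 15% and 18.1% of all genes. The higher genes were the adaptors Gab1 (1.18) and Gab2 (1.74), the ubiquitin ligase Cblb (1.73), the inhibitor Spry4 (2.05) and the ERK-induced genes Etv1 (2.62) and Fos (1.47). Among the lower genes were Nrg1 (-2.12), Nrg2 (-1.87) and Hras (-1.09), with the ERK-induced genes Dusp5 (-1.46), Dusp6 (-1.18), Etv4 (-1.08) and Ccnd1 (-3.61). In macrophage-like over cancer-like cells 12 of 49 were higher and 19 lower, beside 15.7% and 29.5%. Of the shedding genes Adam17 (1.17) and Rhbdf2 (1.52), which carries ADAM17 to the surface, were higher and Rhbdf1 (-2.47) was lower. Of the adaptors and ubiquitin ligases 5 of 8 were higher, Grb2 (1.43), Gab1 (3.70), Gab2 (3.16), Cbl (2.13) and Cblb (1.23). Of the inhibitors 8 of 10 were lower, Errfi1 (-1.72), Lrig1 (-2.68), Lrig3 (-2.59), Spry1 (-2.39), Spry2 (-1.27), Spry4 (-2.86), Spred2 (-1.10) and Spred3 (-1.73). Of the ERK-induced genes 9 of 13 were lower, from -3.02 for Dusp4 to -1.09 for Dusp6, while Etv5 (1.52) and Fos (1.70) were higher.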

How the data were processed

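Transcripts were counted in single cells of 1 pooled sample of tumors per genotype. The authors made 10x Genomics 3′ libraries, ran Cell Ranger (version 3.1.0 in the submitters' processing notes, 7.2.0 in the matrix headers) against the mouse reference mm10 and deposited gene by barcode matrices of raw UMI counts. Whether intronic reads were counted is not given in the sources used here. The 9 genes, all gene lists and the marker lists were chosen with earlier results of these data known.

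Barcodes were kept if they had over 200 but under 8000 genes and if mitochondrial transcripts made up under 20% of their UMIs. Cells of both libraries were merged and clustered in Seurat 5.3.0 (R 4.3.3, Matrix 1.6.5) with 2000 variable genes, 10 components, 20 neighbours and resolution 0.8, after the 9 genes and the pathway lists were taken out of the variable genes. A marker counted as raised in a cluster when found in at least 25% of its cells at 1.5 times the level elsewhere. A class name needed at least 3 raised markers, with at least 50% of its list for a first call. Clusters with at least 50% of the acinar markers raised, or with at least 2 of them among their top 10 genes, were kept apart as mixed. Doublets were neither called nor removed.

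Levels (CPM) are the summed UMIs of a gene in a class over the summed UMIs of all its genes. A gene was past the size rule with at least 100 UMIs over both groups and a ratio of at least 2, which is a rule of size and no test. The rule was run on simulated Poisson counts in which only well-counted genes were changed. Changes in sparse genes, and UMIs clumped in few cells, were not covered. A count of 3 UMIs served as the floor. Upper limits given for a gene with no UMI are those of the exact Poisson interval. Shares of cells were taken after thinning to 2000 UMIs, pairs after thinning to 5000, and shallower cells were left out, 73 and 0 of the cancer-like, 35 and 2 of the stromal-like, 56 of the KPCA_FSTKO macrophage-like, 47 of its endothelial-like and 47 of its neutrophil-like cells for the first depth and 261 of its cancer-like cells for the second. Genes named are the 9 members, list genes past the size rule (some are given by count, and some are not reported here), the 3 genes most like each member and the markers that check a class. Nrg1 in macrophages, Foxp3, Adam10, Fos and Myc between the libraries, and the leading genes of subsets were named outside that rule after their values were seen. Gene positions are from GENCODE (GRCm38), and promoters were found for 6 of the 9 genes and not analysed for Ereg, Hbegf and Erbb3. Alternatives changed the filters, clustering, gate, cells summed, thresholds and scaling (TMM from edgeR 4.0.16, for scaling alone). Sums, intervals and plots were made in Python 3.11.15 (scipy 1.17.1, numpy 2.4.6, matplotlib 3.10.9, pandas 2.3.3).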

Additional observations from a re-analysis of the deposited data

Results flagged for a closer look

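Transcripts of the members also lay in the barcodes that the filters removed, 805 of the KPCA_FSTKO library and 203 of the KPCA_FSTKO_hFSTL3 library, which enter no comparison above. Over both libraries they held 5079 UMIs of Areg (138 CPM), 2875 of Btc (78.3 CPM) and 10311 of Hbegf (281 CPM). They also held 542 UMIs of Ereg (14.8 CPM), 603 of Tgfa (16.4 CPM), 3974 of Egfr (108 CPM), 450 of Erbb2 (12.3 CPM) and 84 of Erbb3 (2.29 CPM). All 8 counts are above the floor of 3.

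Ereg moved in opposite directions between the libraries in different classes. Its log2 ratio of KPCA_FSTKO_hFSTL3 over KPCA_FSTKO was -1.536 in cancer-like cells and 1.541 in stromal-like cells. The share of stromal-like cells with Ereg was similar, at 21.9% and 21.4%, and 4 KPCA_FSTKO_hFSTL3 cells held 75.9% of the Ereg UMIs of their class. With 1 library per genotype the difference was not tested.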

How the results depend on the processing

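No paired analysis was possible because each genotype had 1 library, and leaving out a replicate was not possible for the same reason. Log2 ratios kept their sign in 82 of 87 alternatives between the libraries in cancer-like cells, 79 of 85 in stromal-like cells, 77 of 77 for stromal-like over cancer-like cells and 75 of 75 for macrophage-like over cancer-like cells. Sizes moved more than signs. At resolution 1.2 the stromal-like over cancer-like ratios of Areg (-5.07), Btc (-4.13) and Hbegf (-2.81) were -1.52, -1.89 and -1.55, and Areg in macrophage-like over cancer-like cells (-3.65) was -7.08 without the 5% of cells with most Areg. The share of Areg in KPCA_FSTKO cancer-like cells (94.7%) was 94.1% without the 5% deepest cells, 95.7% and 93.8% at resolutions 0.4 and 1.2 and 95.8% with each library clustered alone. The log2 ratio of Ereg between the libraries in cancer-like cells (-1.54) was -2.57 without the 5% deepest cells, -0.93 without the 5% of cells with most Ereg and -0.91 with mixed clusters counted in, and in stromal-like cells (1.54) it was 0.89 without the 5% deepest cells. Ereg in stromal-like over cancer-like cells (1.68) was 1.41 at resolution 1.2 and 1.53 with the marker gate. Egfr there (0.97) was 0.86 without the 5% deepest cells and 0.86 as a mean over cells, 0.87 with each library clustered alone, 1.09 at resolution 0.4, 1.29 with the gate and 1.08 without clusters 9 and 16, an alternative chosen after seeing the data. Genes past the rule in cancer-like cells (444 higher, 927 lower) were 1535 and 1529 with mixed clusters counted in, 956 and 1877 at a minimum of 20 UMIs, 1516 and 1807 at a ratio of 1.5, and 766 higher without the 5% deepest cells. The causes were not tested. Depth limits the sparse members: Epgn and Erbb3 could not be compared by class beyond the counts given, and neutrophil-like, T/NK-like and erythroid-like levels rest on few UMIs.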

Other observations

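Areg in lymphoid cells stood apart in the KPCA_FSTKO_hFSTL3 library. Its 15 T/NK-like cells held 21 Areg UMIs, 197 CPM (122 to 301), in 5 cells, with 14 of the UMIs in 1 cell, while the 93 T/NK-like cells of the KPCA_FSTKO library held 6 UMIs, 10.3 CPM. Foxp3, the defining factor of regulatory T cells, stood at 272 CPM (29 UMIs) in the former and 30.8 CPM (18 UMIs) in the latter. It was named after its values were seen, and whether the cells with Areg also held Foxp3 was not tested. The keratin set was at 2.94% of the cancer-like level in the former and 11.3% in the latter.

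Neuregulin genes, whose products bind ERBB3 and ERBB4, were found in macrophage-like cells of the KPCA_FSTKO library. Nrg1 stood at 60.9 CPM there (827 UMIs) against 33.9 in cancer-like cells, Nrg4 at 25.5 (346 UMIs) against 0.855 and Nrg2 at 14.4 against 1.46. In the KPCA_FSTKO_hFSTL3 library Nrg1 was 85.6 CPM (258 UMIs) and Nrg4 7.63 CPM (23 UMIs) in macrophage-like cells.

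Among the ERK-induced genes in cancer-like cells, Myc stood at 65.7 CPM in the KPCA_FSTKO_hFSTL3 library against 35.4 (log2 ratio 0.89) and Fos at 202 against 343 (-0.76), both short of the size rule.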
